A study of Rattus norvegicus with 32 samples.

Results

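Uterine RNA of rats given bisphenol A (BPA) at 25 μg/kg body weight per day was compared with that of rats given the vehicle alone, over all 13312 genes that had enough counts to be tested of 17327 in the table. The comparison holds 8 of the 32 libraries of the series, 4 of the group called BPA 25 and 4 of the group called control, taken from the labels and not from any measured value. Bisphenol A is a plastic monomer that binds estrogen receptors weakly. The animals were Sprague-Dawley rats of the NCTR colony (Sprague-Dawley/CD23/NctrBR). Dosing was by oral gavage to the dams from gestation day 6 until labor began, and to the pups themselves from postnatal day 1, with the study ended at PND365, about a year after birth. The BPA 25 rats received BPA at 25 μg/kg body weight per day by that schedule. Controls received 0.3% carboxymethylcellulose, a thickener with no hormone activity. The other groups, of 4 libraries each, received BPA at 2.5, 250, 2500 or 25000 μg/kg body weight per day, or ethinyl estradiol (EE2), an orally active estrogen, at 0.05 or 0.5 μg/kg body weight per day. The labels name no animal, litter or estrous stage for any library. P-values therefore measure the spread between these libraries only.

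The uterus is a muscular tube lined by glandular epithelium on a fibroblast-rich stroma, and its composition follows estrogen and progesterone over each estrous cycle. Estrogen acts there mainly through the receptor encoded by Esr1, which drives epithelial growth and secreted products such as complement C3, while progesterone acts through Pgr. In ageing female rats the cycle often becomes irregular. RNA was taken from whole tissue, so that a change in the number of cells of a type and a change in RNA per cell cannot be told apart.

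Depth was between 11818451 and 16131148 counts per library at BPA 25 and between 11777809 and 14579842 in controls. Levels are CPM, read counts scaled to a fixed library size, with sizes adjusted by the trimmed mean of M-values (TMM). Before that adjustment, 3 counts in a library correspond to between 0.186 and 0.255 CPM in these 8 libraries. Of 15 uterine identity genes listed, 12 were in the table, with Hoxa10, Hoxa11 and Hoxd11 not analysed here. Emx2, a regulator of the developing reproductive tract, averaged 139 ± 7.19 CPM at BPA 25 and 125 ± 12.5 CPM in controls, and Hoxd10, a homeobox factor, averaged 86 ± 18.7 CPM at BPA 25 and 118 ± 30.3 CPM in controls (SD, n = 4 each). The 12 genes' summed level was between 1770 and 2170 CPM at BPA 25 and between 2230 and 3000 CPM in controls. Des, the muscle intermediate filament desmin, made up much of that sum, with 1010 ± 267 CPM at BPA 25 and 1540 ± 348 CPM in controls. Of the 12, Lhx2 had no count at BPA 25, and each had counts in controls. No library of these 8 stood apart by likeness to all others, with a median Spearman correlation of 0.953 or more. Within BPA 25, however, the libraries were alike in pairs. The chi-square per degree of freedom over genes was 46.9 between libraries 1 and 3 and 25.6 between libraries 2 and 4, but between 96.2 and 105 for the other 4 pairs, where the control pairs ranged from 34.5 to 94.7. The estrogen-responsive calcium-binding gene S100g shows the split, with 56.6, 636, 45.2 and 773 CPM in BPA 25 libraries 1 to 4, against 761, 721, 1070 and 493 CPM in control libraries 1 to 4. C3 had 1100, 5450, 874 and 5770 CPM at BPA 25 and 8100, 229, 2990 and 2860 CPM in controls. Libraries 2 and 4 of BPA 25 lay within the control range for S100g and libraries 1 and 3 below it.

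In all, 256 genes passed the test of BPA 25 against control, 127 higher and 129 lower, which is 1.92% of the genes tested (0.954% higher and 0.969% lower). The test was edgeR's quasi-likelihood test fitted over all 8 groups, with p-values adjusted by the Benjamini-Hochberg method over all 13312 genes and a threshold of 0.05. The higher genes moved farther than the lower ones: 80 of the 127 higher genes and 30 of the 129 lower genes differed by more than 1 on the log2 scale. All 4 BPA 25 libraries lay beyond all 4 control libraries for 110 of the higher genes and 125 of the lower ones. Over all genes tested, the groups did not overlap for 1353 genes that were higher at BPA 25 (10.2%) and 1303 that were lower (9.79%).

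The count depended on single libraries. With 1 library left out, the count was 35, 0, 1 and 0 genes without control library 1, 2, 3 and 4, and 0, 68, 4 and 523 genes without BPA 25 library 1, 2, 3 and 4, by the same edgeR test. At an unadjusted p under 0.05, 3242 genes differed with all libraries, and 2753, 2609 and 2228 in the fits without control library 2, control library 4 and BPA 25 library 1, which called 0. With only the 8 libraries of both groups in the fit, 1195 genes passed (667 or 5.38% higher, 528 or 4.25% lower of 12409 tested), of which 226 were among the 256. DESeq2 called 623 genes higher (4.68%) and 437 lower (3.28%), and limma voom with sample weights 1276 higher (9.59%) and 1374 lower (10.3%). With the median-of-ratios scaling of DESeq2 in place of TMM, 165 genes were higher and 108 lower, a shift of the split toward higher genes. Each single gene below carries these limits. For many of the genes the values in the 8 libraries are given, so that they can be read without the call. For others only a mean or the highest control value is given.

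**Figure D1:**
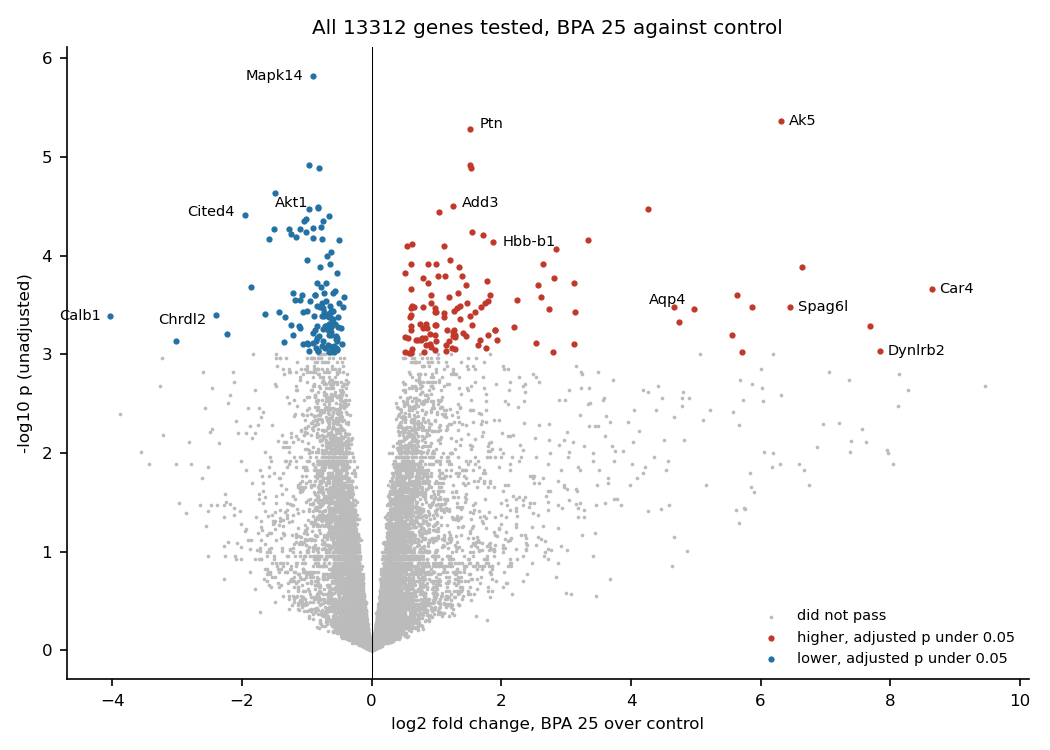
Each point is 1 of 13312 genes, placed by its log2 fold change of BPA 25 over control (x axis) and by -log10 of its unadjusted p (y axis); red and blue points are the 127 higher and 129 lower genes. Mapk14 has the smallest p on the lower side and Ak5 on the higher side, and the higher genes reach farther from 0.

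The smallest p of all belonged to Mapk14, which encodes the stress-activated kinase p38 alpha. Mapk14 had 123, 122, 131 and 139 CPM at BPA 25, against 250, 265, 198 and 257 CPM in controls, and its log2 fold change was -0.91 (SE 0.15, adjusted p = 0.0206). The BPA 25 libraries were tightly grouped and all lay below the lowest control. Akt1, the kinase downstream of insulin and growth factor receptors, fell in the same manner. It had 60.2, 56, 57 and 78.2 CPM at BPA 25 and 121, 105, 106 and 115 CPM in controls (log2 fold change -0.83, SE 0.17, adjusted p = 0.0273). Mapk14 and the genes of the next paragraph were chosen after their values were seen, for their small p. Akt1 came from the list of endometrial cancer genes, where it was the 1 of 18 tested that passed, beside 0.969% of all genes lower.

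Ptn encodes pleiotrophin, a secreted heparin-binding growth factor. It had 594, 465, 578 and 267 CPM at BPA 25 and 139, 207, 164 and 156 CPM in controls (log2 fold change 1.52, SE 0.27, adjusted p = 0.0231). Every BPA 25 library was above every control. Adcyap1r1, the receptor for the neuropeptide PACAP, had 12.5, 10.9, 12 and 12.1 CPM at BPA 25 and 3.36, 3.03, 5.07 and 5.08 CPM in controls (log2 fold change 1.52, SE 0.29, adjusted p = 0.0252). Add3, an adducin that links actin to the spectrin skeleton, had 166, 176, 168 and 144 CPM at BPA 25 and 71.3, 64.4, 75.9 and 63.6 CPM in controls (log2 fold change 1.25, SE 0.25, adjusted p = 0.0273). Both were almost equal among the BPA 25 libraries and so did not follow the pairing of libraries 1 and 3 against 2 and 4. Prss23, a secreted serine protease, averaged 39.6 ± 13.8 CPM at BPA 25 and 13.7 ± 4.19 CPM in controls (SD, n = 4 each), with no overlap.

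The promoters of 5 genes that the results turn on are shown because they let a reader look for the response elements usually sought in estrogen-responsive genes. They are RefSeq sequences of assembly GRCr8, from 250 bases before to 50 bases after the start, and are not on the build of the counts. Mapk14 lies at chr20:6751109-6751408 on the plus strand, Ptn at chr4:66342283-66342582 on the minus strand, Adcyap1r1 at chr4:85923921-85924220 on the plus strand, Spag6l at chr11:97677590-97677889 on the plus strand and Smtn at chr14:82644465-82644764 on the minus strand. All run 5′ to 3′ along the gene, and capitals mark a match to TGANTCA, the AP-1 site, the only 1 of the 3 motifs searched that these windows held.
Mapk14: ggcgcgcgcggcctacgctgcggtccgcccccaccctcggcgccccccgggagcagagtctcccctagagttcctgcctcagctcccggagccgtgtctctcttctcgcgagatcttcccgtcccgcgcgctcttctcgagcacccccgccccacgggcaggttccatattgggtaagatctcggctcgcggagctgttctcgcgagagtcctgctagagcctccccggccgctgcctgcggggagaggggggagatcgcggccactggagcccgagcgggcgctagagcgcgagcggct
Ptn: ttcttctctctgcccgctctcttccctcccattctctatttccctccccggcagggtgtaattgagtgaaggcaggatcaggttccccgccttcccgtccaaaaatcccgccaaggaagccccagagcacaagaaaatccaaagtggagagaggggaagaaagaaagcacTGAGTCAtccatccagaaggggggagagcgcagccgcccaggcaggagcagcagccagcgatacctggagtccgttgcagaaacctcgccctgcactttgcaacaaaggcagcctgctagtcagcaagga
Adcyap1r1: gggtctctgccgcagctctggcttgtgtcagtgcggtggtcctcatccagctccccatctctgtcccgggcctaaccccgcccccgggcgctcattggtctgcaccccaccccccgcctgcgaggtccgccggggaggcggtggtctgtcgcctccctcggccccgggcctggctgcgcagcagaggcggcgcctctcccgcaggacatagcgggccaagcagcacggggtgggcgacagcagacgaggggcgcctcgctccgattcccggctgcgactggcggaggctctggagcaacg
Spag6l: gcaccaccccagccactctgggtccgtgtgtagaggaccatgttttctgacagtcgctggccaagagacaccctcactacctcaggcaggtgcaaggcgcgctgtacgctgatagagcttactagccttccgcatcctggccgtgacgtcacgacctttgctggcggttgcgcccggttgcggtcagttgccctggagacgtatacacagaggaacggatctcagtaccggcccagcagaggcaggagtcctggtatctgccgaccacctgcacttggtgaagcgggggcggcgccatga
Smtn: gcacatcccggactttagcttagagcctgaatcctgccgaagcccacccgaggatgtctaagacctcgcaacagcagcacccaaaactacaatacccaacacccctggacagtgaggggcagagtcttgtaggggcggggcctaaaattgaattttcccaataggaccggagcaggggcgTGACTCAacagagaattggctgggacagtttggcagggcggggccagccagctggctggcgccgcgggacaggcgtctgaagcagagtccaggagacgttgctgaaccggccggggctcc
The motifs searched, on both strands, were the palindromic estrogen response element, TGANTCA and the E-box CACGTG, each counted on its own, so that a stretch matching several would count for each. A match to TGANTCA was present in 6 of 104 promoters of higher genes (5.77%), in 7 of 114 of lower genes (6.14%) and in 617 of all 11202 promoters of genes tested (5.51%). The E-box was in 9 of the higher set (8.65%), 9 of the lower set (7.89%) and 985 of all (8.79%). The full estrogen response element was in 0 promoters of either set and in 1 of all 11202. Promoters were found for 99 higher, 107 lower and 10688 of all genes, some with several starts. These shares are a description and no test of them was made.

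Most of the largest rises were in genes with low levels in controls. By the rule used for naming genes (passed the test, each BPA 25 library above or each below the mean of the controls, and log2 CPM averaging 1 or more), the 12 largest increases were those of Ak5, Slc17a3, Them5, Aqp4, Cyp2e1, Pamr1, Lrrc34, Vegfd, Rims1, Napsa, Cd163 and Fam107a, with log2 fold changes between 2.64 and 6.31. Ak5, an adenylate kinase that balances adenine nucleotides, had 307, 11.4, 96.3 and 10 CPM at BPA 25 and 0.172, 2.29, 1.59 and 1.18 CPM in controls (log2 fold change 6.31, SE 1.11, adjusted p = 0.0231). The groups did not overlap, but libraries 1 and 3 were far above 2 and 4. Slc17a3, an organic anion transporter, was the reverse, with 0.255, 30.8, 0.487 and 13.6 CPM at BPA 25 and 0.0862, 0.148, 0.145 and 0.348 CPM in controls. It was the 1 gene of the 12 whose groups overlapped.

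Several of these genes were high in all 4 libraries. Aqp4, a water channel, had 32.8, 13.8, 20.7 and 9.73 CPM at BPA 25 and 1.03, 0.296, 0.652 and 0.488 CPM in controls (log2 fold change 4.97, SE 1.22, adjusted p = 0.0393). Lrrc34, a leucine-rich repeat gene, had 29.9, 12.9, 21.3 and 13.7 CPM at BPA 25 and 2.16, 2.07, 2.1 and 2.58 CPM in controls (log2 fold change 3.12, SE 0.83, adjusted p = 0.0473). Both were clear of the controls in all 4 libraries. Cd163, the macrophage receptor that takes up hemoglobin bound to haptoglobin, had 15.8, 4.49, 6.61 and 6.37 CPM at BPA 25 and 0, 1.11, 2.25 and 1.53 CPM in controls (log2 fold change 2.74, SE 0.68, adjusted p = 0.0393). Vegfd, a growth factor for lymphatic vessels, had 63.2, 17.8, 18.7 and 9.29 CPM at BPA 25 and 1.47, 7.48, 2.25 and 3.9 CPM in controls (log2 fold change 2.84, SE 0.62, adjusted p = 0.0293).

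Others were uneven over the BPA 25 libraries, by 1 far higher library or by the pairing of libraries 1 and 3 against 2 and 4. Them5, a mitochondrial acyl-CoA thioesterase, had 20.5, 6.19, 160 and 3.95 CPM at BPA 25 and 1.55, 1.04, 0.507 and 0.766 CPM in controls. Fam107a, an actin-associated protein, had 51.1, 57, 306 and 31.6 CPM at BPA 25 and 16, 25.4, 14.8 and 15.3 CPM in controls. Library 3 was the high one in both. Libraries 1 and 3 were above 2 and 4 for Cyp2e1, the ethanol-oxidising cytochrome P450 (28.4, 1.77, 11.7 and 1.98 CPM at BPA 25 and at most 1.55 CPM in controls). Pamr1, a secreted protein with a peptidase-like domain, had 74.8, 7.35, 16.6 and 7.02 CPM at BPA 25 and at most 4.18 CPM in controls. Rims1, a scaffold of presynaptic release sites, was also higher in libraries 1 and 3, with 193, 24, 70.7 and 19.1 CPM at BPA 25 and at most 18.7 CPM in controls. Napsa, an aspartic protease, was higher in libraries 2 and 4 instead, with 10.9, 73.6, 7.03 and 29.1 CPM at BPA 25 and at most 5.08 CPM in controls. In each of these, the lowest BPA 25 library still lay above the highest control.

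**Figure D2:**
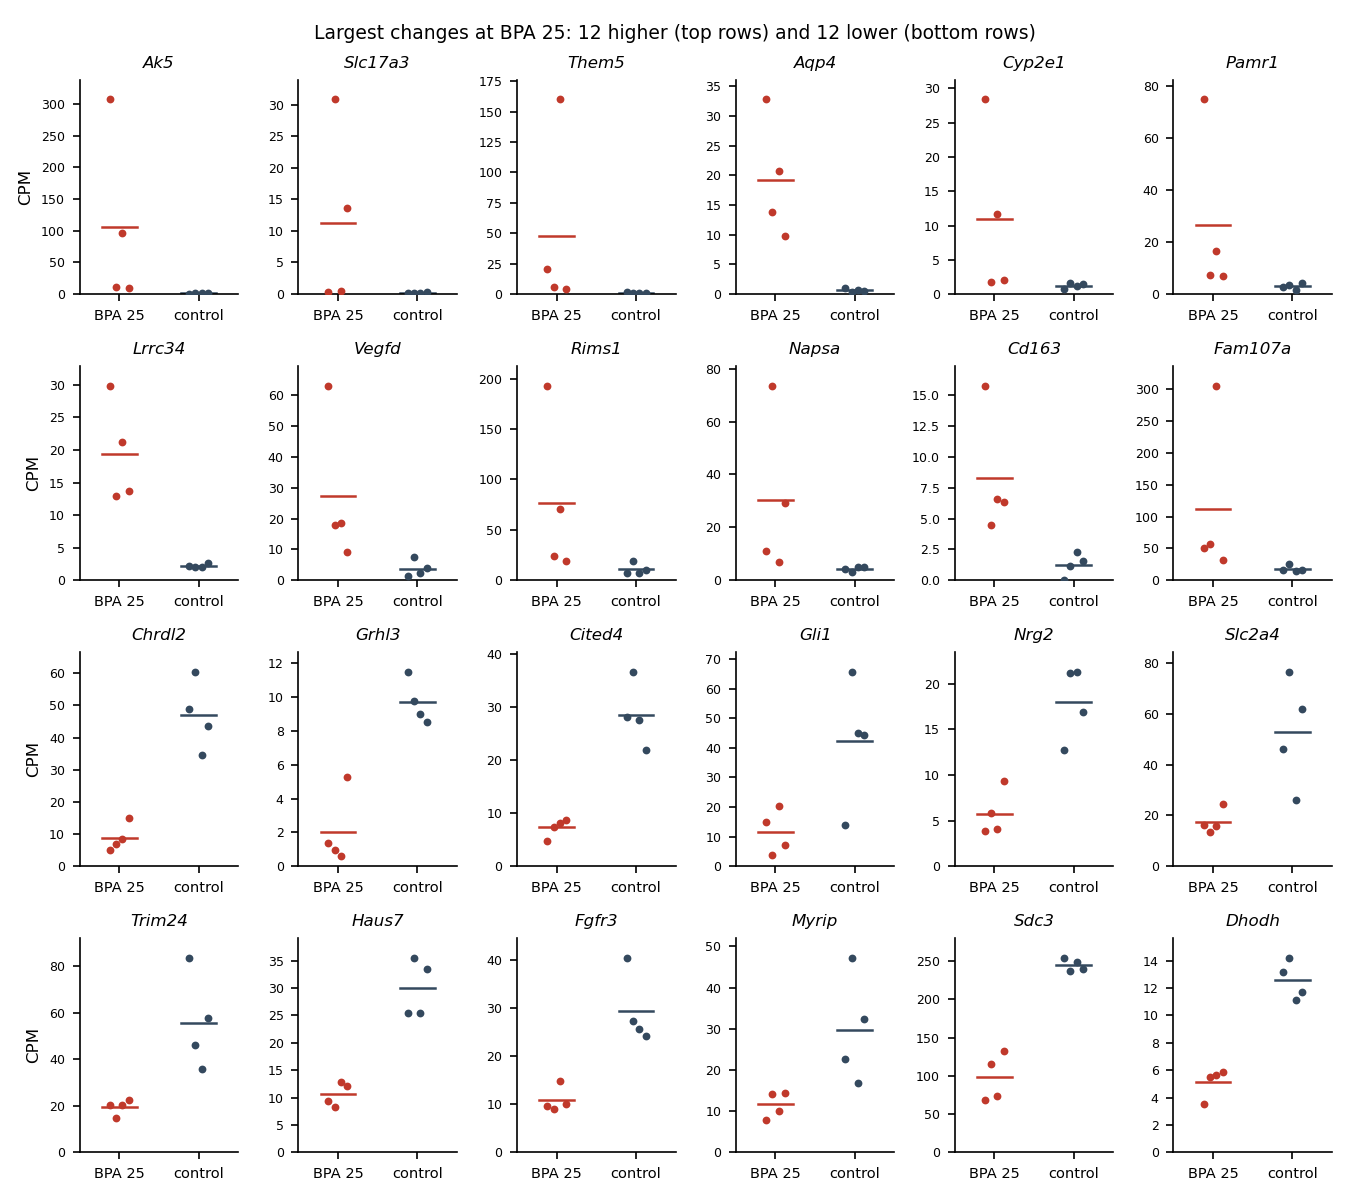
CPM (y axis, linear from 0, own scale per gene) in each of the 4 BPA 25 (red) and 4 control (dark) libraries for the 12 largest increases (top rows) and the 12 largest decreases (bottom rows); lines are means. On these scales most increases are spread widely over the BPA 25 libraries, whereas BPA 25 points of the lower genes lie closer together. A linear scale from 0 compresses low values, and relative to its level a lower gene could vary severalfold, as Grhl3 did (0.626 to 5.27 CPM at BPA 25).

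Some genes outside the 12 followed the pairing of the BPA 25 libraries without passing. Cyp26a1, which degrades retinoic acid, had 0, 32.8, 0.835 and 26.8 CPM at BPA 25 and at most 0.37 CPM in controls (adjusted p = 0.0582). Igfbp1, a binding protein of insulin-like growth factors, had 0.594, 12.3, 1.88 and 9.66 CPM at BPA 25 and at most 0.652 CPM in controls (adjusted p = 0.0574). Both were high in libraries 2 and 4, as was Sfrp4, a secreted Wnt antagonist (67.6, 166, 26.8 and 113 CPM at BPA 25 and at most 35.5 CPM in controls). Mmp11, a matrix protease, was instead high in libraries 1 and 3, with 684, 139, 478 and 132 CPM at BPA 25 and 198, 35.3, 48.4 and 43 CPM in controls (adjusted p = 0.0565).

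A gene with no control count was Car4, a membrane carbonic anhydrase, with 0.933, 6.94, 0.766 and 3.59 CPM at BPA 25 and 0 in each control. Its mean was at least 13.6-fold higher at BPA 25, against a floor of 3 counts per library. It was too low for the naming rule and was chosen after its values were seen, as was Calb1. Calb1, a calcium-binding protein, had 0.594, 0.34, 0.139 and 0.293 CPM at BPA 25 and 0.0862, 1.41, 6.74 and 14.2 CPM in controls. Its call rested on control libraries 3 and 4, and the groups overlapped.

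The 12 largest decreases were those of Chrdl2, Grhl3, Cited4, Gli1, Nrg2, Slc2a4, Trim24, Haus7, Fgfr3, Myrip, Sdc3 and Dhodh, with log2 fold changes between -2.40 and -1.28. Chrdl2, a secreted antagonist of bone morphogenetic proteins (BMPs), had 5.09, 7.08, 8.42 and 14.9 CPM at BPA 25 and 49, 60.5, 34.6 and 43.6 CPM in controls (log2 fold change -2.40, SE 0.60, adjusted p = 0.0393). Cited4, a coactivator that binds CBP and p300, had 4.84, 7.49, 8.21 and 8.78 CPM at BPA 25 and 28.2, 36.7, 27.5 and 21.9 CPM in controls (log2 fold change -1.96, SE 0.40, adjusted p = 0.0273). In both, the highest BPA 25 library was far below the lowest control. Grhl3, a transcription factor of epithelial barriers, had 1.36, 0.953, 0.626 and 5.27 CPM at BPA 25 and 11.5, 9.77, 8.99 and 8.5 CPM in controls (log2 fold change -2.23, SE 0.58, adjusted p = 0.0449).

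Several of the lower genes act in growth factor or hormone signalling. Gli1, the transcription factor and standard readout of Hedgehog signalling, had 15, 3.95, 20.5 and 7.32 CPM at BPA 25 and 13.9, 65.7, 45.1 and 44.4 CPM in controls (log2 fold change -1.86, SE 0.44, adjusted p = 0.0393). Control library 1 lay inside the BPA 25 range, so that the groups overlapped. Of the same pathway, the receptor Ptch1 (log2 fold change -0.27, adjusted p = 0.587) and the ligand Ihh (1.35, adjusted p = 0.281) did not pass by edgeR. Fgfr3, a fibroblast growth factor receptor, had 9.59, 9.05, 14.8 and 10.1 CPM at BPA 25 and 40.5, 27.3, 25.6 and 24.2 CPM in controls (log2 fold change -1.43, SE 0.35, adjusted p = 0.0393). Nrg2, a ligand of ErbB receptors, averaged 5.77 ± 2.57 CPM at BPA 25 and 18 ± 4.1 CPM in controls (SD, n = 4 each). Trim24, a coregulator of nuclear receptors, had 20.5, 15, 20.4 and 22.5 CPM at BPA 25 and 83.6, 46, 35.7 and 57.7 CPM in controls (log2 fold change -1.51, SE 0.32, adjusted p = 0.0273). Of Gli1, Fgfr3, Nrg2 and Trim24, Gli1 was the 1 whose groups overlapped.

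The remaining 5 of the 12 genes act in metabolism and cell structure. Slc2a4, the insulin-responsive glucose transporter GLUT4, had 16.4, 13.4, 15.7 and 24.7 CPM at BPA 25 and 46.1, 76.6, 25.9 and 62.1 CPM in controls (log2 fold change -1.59, SE 0.34, adjusted p = 0.0273). Dhodh, the mitochondrial enzyme of pyrimidine synthesis, had 3.56, 5.51, 5.64 and 5.85 CPM at BPA 25 and 13.2, 14.2, 11.1 and 11.7 CPM in controls (log2 fold change -1.28, SE 0.27, adjusted p = 0.0273). Haus7, a subunit of the augmin complex that builds spindle microtubules, averaged 10.7 ± 2.2 CPM at BPA 25 and 30 ± 5.28 CPM in controls. Sdc3, a heparan sulfate proteoglycan, averaged 97.7 ± 31.6 CPM at BPA 25 and 245 ± 7.98 CPM in controls. Myrip, which links Rab27 vesicles to myosin, averaged 11.6 ± 3.17 CPM at BPA 25 and 29.8 ± 13.3 CPM in controls (SD, n = 4 each). None of the 5 overlapped between the groups.

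Of 35 gene lists, with 551 genes tested, motile cilia stood highest. Motile cilia are the beating cell protrusions of oviduct and some endometrial epithelium, built on a microtubule axoneme under the control of the transcription factor Foxj1. Of 16 listed genes, 10 were tested and 1 passed, higher, beside 0.954% of all genes, while the log2 fold change of all 10 was above 0, with a median of 3.66 beside 0 for all genes, and 9 had no overlap between the groups, beside 10.2% of all genes. Spag6l, a protein of the central pair of the axoneme, was the 1 that passed, with 18.8, 10.9, 11.8 and 7.39 CPM at BPA 25 and 0.0862, 0.074, 0.145 and 0.209 CPM in controls (log2 fold change 6.46, SE 1.58, adjusted p = 0.0393). Foxj1 had 9.16, 4.02, 7.31 and 6 CPM at BPA 25 and 0.862, 0, 0 and 0.139 CPM in controls (adjusted p = 0.0635). The summed level of the 10 genes was between 77.7 and 166 CPM at BPA 25 and between 32.5 and 42.6 CPM in controls. For Spag6l and Foxj1, each BPA 25 library was above every control, and the controls were near the detection limit. With only the 8 libraries in the fit, 9 of the 10 genes passed, beside 5.38% of all genes higher in that fit. With DESeq2 5 passed, beside 4.68%, and with limma 1, beside 9.59%. In the edgeR fits with 1 library left out, 1 passed without BPA 25 library 4 and 0 passed in each of the others.

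Other axonemal genes outside that list, chosen after their values were seen, passed. Dynlrb2, a dynein light chain, had 23.8, 8.58, 18.7 and 7.68 CPM at BPA 25 and at most 0.0862 CPM in controls, where it had 3 counts in all. Its ratio of summed counts was 254 (exact 95% interval 86.6 to 1230, counting error only). Saxo2, which binds axonemal microtubules, had 5.77, 2.79, 4.18 and 1.98 CPM at BPA 25 and at most 0.279 CPM in controls (adjusted p = 0.0422). Clxn, calaxin of the outer dynein arms, had 35.5, 17.4, 19.8 and 12.8 CPM at BPA 25 and 4.31, 4.29, 2.68 and 3.34 CPM in controls (adjusted p = 0.0473). Dnaaf1, Drc1 and Ccdc40, for the assembly and linkage of the axoneme, had adjusted p-values of 0.0635, 0.0584 and 0.0759 and did not pass. Ovarian genes were listed as markers of tissue taken along with the uterus; oviduct tissue was not tested, since its 1 listed marker, Ovgp1, was not analysed here. Of 6 ovarian genes tested, 0 passed in either direction by edgeR, DESeq2 or limma. By edgeR 1 had an unadjusted p under 0.05, beside 3242 of all 13312 genes. The list's summed level was between 14.1 and 41.7 CPM at BPA 25 and between 9.57 and 44.1 CPM in controls.

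Red blood cell genes were all above 0. Of 6 tested, 1 passed, beside 0.954% of all genes, and 5 had no overlap between the groups, beside 10.2%, with a median log2 fold change of 1.22. Hbb-b1, a beta-globin, had 65.4, 53, 54.2 and 40.6 CPM at BPA 25 and 8.62, 12.4, 19.3 and 17.8 CPM in controls (log2 fold change 1.87, SE 0.40, adjusted p = 0.0273). Hbb had 307, 255, 268 and 203 CPM at BPA 25 and 88.6, 84.2, 128 and 126 CPM in controls (adjusted p = 0.0749), and Hba-a1 averaged 124 ± 12.6 CPM at BPA 25 and 72.6 ± 16.8 CPM in controls. Globin genes are near-identical copies, so reads may be split between them. The list's summed level was between 496 and 585 CPM at BPA 25 and between 205 and 318 CPM in controls. It moved with the groups, and its part in the other results was not tested.

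Smooth muscle genes lay on the lower side. Of 18 tested, 1 passed, beside 0.969% of all genes, and 16 were below 0, with a median of -0.56, while 5 had no overlap, beside 9.79%. Smtn encodes smoothelin, a protein of contractile smooth muscle, and had 227, 185, 208 and 269 CPM at BPA 25 and 507, 560, 324 and 488 CPM in controls (log2 fold change -1.08, SE 0.26, adjusted p = 0.0393). Tagln, the actin-binding transgelin, had 1610, 2030, 1540 and 2620 CPM at BPA 25 and 3620, 4360, 2750 and 3850 CPM in controls (adjusted p = 0.0502). Tpm2, a tropomyosin, averaged 357 ± 165 CPM at BPA 25 and 852 ± 148 CPM in controls (adjusted p = 0.0529), and Acta2, smooth muscle actin, averaged 6730 ± 637 CPM at BPA 25 and 9230 ± 3890 CPM in controls (adjusted p = 0.375). The list summed to between 19200 and 25900 CPM at BPA 25 and between 24900 and 46500 CPM in controls, so that the ranges overlapped only at their ends. With only the 8 libraries in the fit, 5 of the 18 passed, all lower, beside 4.25% of all genes in that fit.

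**Figure D3:**
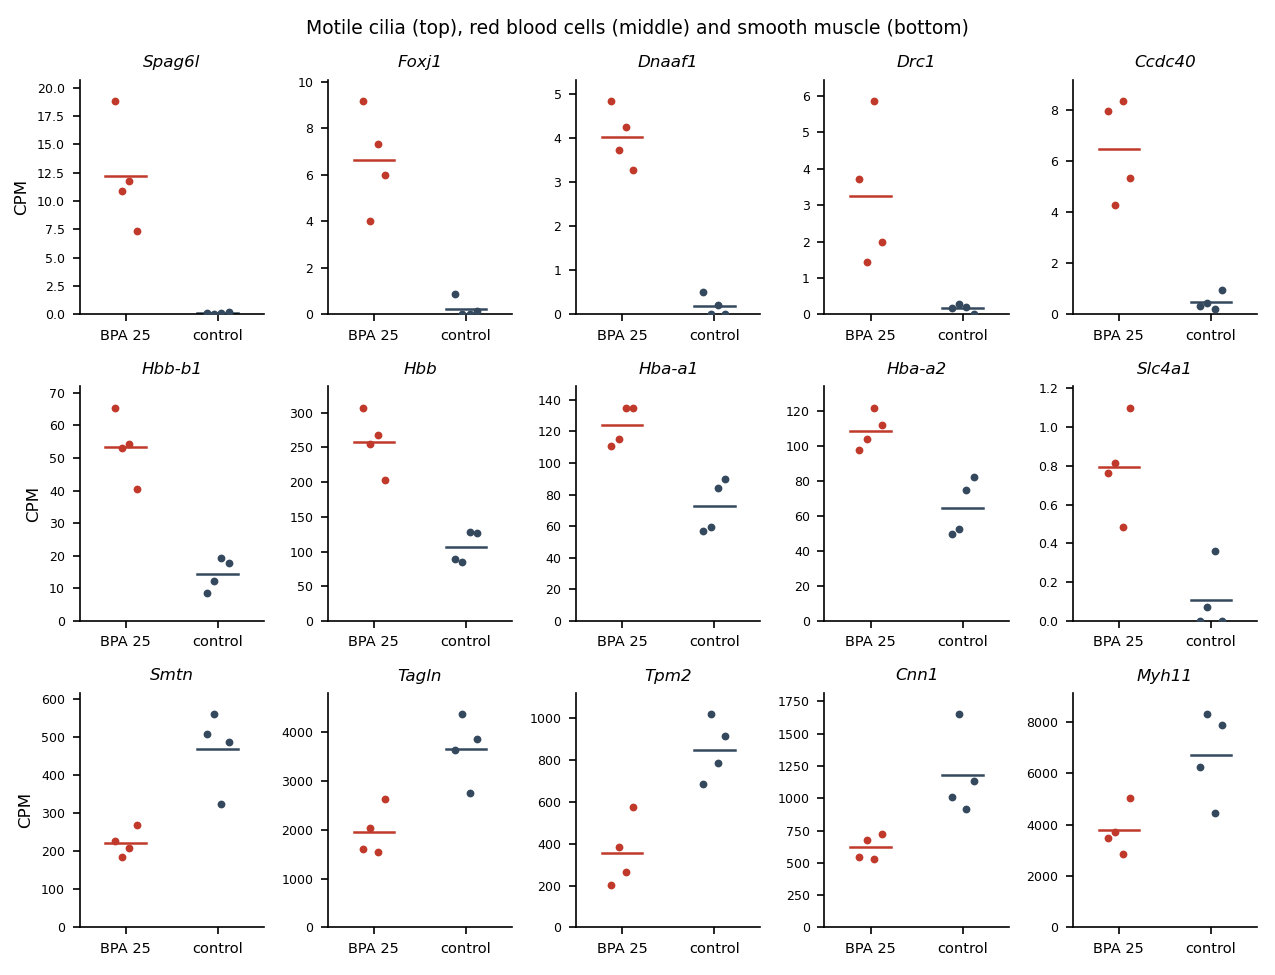
CPM (y axis, linear from 0) in 4 BPA 25 (red) and 4 control (dark) libraries for 5 genes each of the motile cilia, red blood cell and smooth muscle lists; lines are means. The cilia and blood genes are higher at BPA 25 in all 4 libraries, and the muscle genes are lower, with Myh11, a smooth muscle myosin, overlapping (3770 ± 914 CPM at BPA 25 and 6710 ± 1750 CPM in controls).

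Of the BMP and transforming growth factor list, 3 of 25 tested genes passed, all higher, beside 0.954% of all genes. Of the 25, 15 were above 0 and 10 below, with a median of 0.27. Leaving out control library 3 gave a median of 0.15, and leaving out control library 2 gave 0.51. Smad1 and Smad5 carry the BMP signal to the nucleus. Smad1 had 124, 106, 106 and 92.4 CPM at BPA 25 and 82.8, 60.7, 77.2 and 62.1 CPM in controls (log2 fold change 0.60, SE 0.13, adjusted p = 0.0337), and Smad5 averaged 61.1 ± 9.19 CPM at BPA 25 and 39.9 ± 2.97 CPM in controls. Id2, an inhibitor of helix-loop-helix factors that BMP signalling induces, had 151, 74.1, 163 and 51.8 CPM at BPA 25 and 31.8, 46.6, 49.9 and 43 CPM in controls (log2 fold change 1.36, SE 0.33, adjusted p = 0.0393). Id3 averaged 119 ± 58.4 CPM at BPA 25 and 51 ± 10.8 CPM in controls and did not pass (adjusted p = 0.0543). Chrd, which binds and blocks BMPs as Chrdl2 does, averaged 53.7 ± 22.2 CPM at BPA 25 and 96.5 ± 32.2 CPM in controls (adjusted p = 0.0829). Other members, among them ones with these same roles, went either way without passing. The BMP antagonists Nog and Grem1 had log2 fold changes of 1.81 and 1.12, the BMP-induced Id1 one of -0.27 and the ligand Bmp7 one of -0.83.

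In the insulin-like growth factor list, 1 of 13 tested genes passed, higher, beside 0.954% of all genes. Igfbp3, the main carrier of these factors in blood, had 164, 72.1, 116 and 52.5 CPM at BPA 25 and 30.5, 23.5, 29.7 and 38.9 CPM in controls (log2 fold change 1.72, SE 0.37, adjusted p = 0.0273). The growth factor itself, Igf1, averaged 229 ± 103 CPM at BPA 25 and 441 ± 198 CPM in controls and did not pass (adjusted p = 0.159). Irs2, an adaptor of the insulin receptor, averaged 89.7 ± 66.7 CPM at BPA 25 and 32.4 ± 8.08 CPM in controls (adjusted p = 0.0507). Igfbp2 averaged 27.1 ± 11.9 CPM at BPA 25 and 75.6 ± 45.8 CPM in controls (adjusted p = 0.0574).

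Among fat cell genes, 1 of 13 passed, higher, beside 0.954% of all genes. Of the 13, 10 were above 0, with a median log2 fold change of 0.85. That median was 0.43 without BPA 25 library 1 and with only the 8 libraries in the fit. Lpl, the lipase that frees fatty acids from lipoproteins, had 1250, 206, 455 and 175 CPM at BPA 25 and 77.1, 118, 65.7 and 78.8 CPM in controls (log2 fold change 2.62, SE 0.63, adjusted p = 0.0393). Adipoq, the defining adipokine of fat, averaged 274 ± 77.4 CPM at BPA 25 and 272 ± 201 CPM in controls (adjusted p = 0.997). Fabp4, a fatty acid carrier, averaged 19.4 ± 13.6 CPM at BPA 25 and 3.67 ± 5.57 CPM in controls (adjusted p = 0.264). Lep, the hormone leptin, averaged 4.51 ± 4.51 CPM at BPA 25 and 0.479 ± 0.628 CPM in controls (adjusted p = 0.195), and Pparg, the regulator of fat cell formation, 4.29 ± 1.95 CPM at BPA 25 and 1.98 ± 0.81 CPM in controls (adjusted p = 0.129).

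Among macrophage genes, Cd163 was the 1 of 16 that passed, beside 0.954% of all genes. Of the 16, 11 were above 0 and 5 below, with a median of 0.26 that was 0.15 without control library 2, 0.17 without BPA 25 library 4 and 0.41 without BPA 25 library 3. Mrc1, the mannose receptor, had 126, 124, 69.8 and 128 CPM at BPA 25 and 27.7, 39.6, 53.3 and 54.2 CPM in controls, with no overlap but an adjusted p of 0.0666. Adgre1, the macrophage antigen F4/80, averaged 69.2 ± 16.3 CPM at BPA 25 and 41.1 ± 4.51 CPM in controls (adjusted p = 0.187). C1qa, a complement subunit, averaged 53.9 ± 7.31 CPM at BPA 25 and 72 ± 20.8 CPM in controls (adjusted p = 0.424), and Aif1, the macrophage protein Iba1, 35.2 ± 12.1 CPM at BPA 25 and 44.5 ± 9.1 CPM in controls (adjusted p = 0.575).

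Of the estrogen response list, 1 of 21 tested genes passed, lower, beside 0.969% of all genes. Ckb, the brain-type creatine kinase known as an estrogen-induced protein of the rat uterus, had 184, 323, 379 and 431 CPM at BPA 25 and 653, 1150, 540 and 791 CPM in controls (log2 fold change -1.25, SE 0.32, adjusted p = 0.0428). Of 22 steroid receptor and steroid metabolism genes, 0 passed by edgeR, and 6 had an unadjusted p under 0.05, beside 3242 of all 13312 genes. By DESeq2 3 passed, all higher, beside 4.68% of all genes higher, and by limma 1, higher, beside 9.59%. With only the 8 libraries in the edgeR fit 2 passed, higher, beside 5.38%. Esr1 averaged 140 ± 29.7 CPM at BPA 25 and 146 ± 33.2 CPM in controls (adjusted p = 0.891), and Pgr averaged 240 ± 65.4 CPM at BPA 25 and 265 ± 50.3 CPM in controls (adjusted p = 0.845). Esr2, the second estrogen receptor, was near the detection limit, with 0.0849, 0.204, 0.0696 and 0.439 CPM at BPA 25 and 0.604, 0.222, 0.652 and 0.348 CPM in controls. Esrrg, an estrogen-related orphan receptor, had 5.52, 5.72, 3.62 and 5.34 CPM at BPA 25 and 1.55, 0.814, 1.16 and 2.93 CPM in controls, without overlap and with an adjusted p of 0.129.

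The other panel genes did not pass either. C3 had an adjusted p of 0.947 and S100g of 0.408, each with the spread over libraries given above. Lcn2, a secreted siderophore-binding protein, averaged 46.2 ± 44.5 CPM at BPA 25 and 140 ± 156 CPM in controls, and Ltf, lactoferrin, averaged 0.861 ± 0.39 CPM at BPA 25 and 0.785 ± 0.761 CPM in controls. Wfdc2, a glandular secreted protein, averaged 35.6 ± 18.4 CPM at BPA 25 and 62.5 ± 26.8 CPM in controls, and Krt8, a keratin of simple epithelium, averaged 289 ± 187 CPM at BPA 25 and 386 ± 128 CPM in controls. Mki67, a marker of dividing cells, averaged 43.5 ± 17.5 CPM at BPA 25 and 56.7 ± 48.7 CPM in controls, so that no difference in its level was detectable at this spread. Of 27 cell cycle genes, 0 passed in either direction by edgeR, and 5 had an unadjusted p under 0.05, beside 3242 of all 13312 genes. By DESeq2 1 was higher and 1 lower, beside 4.68% and 3.28% of all genes. By limma 3 were higher and 1 lower, beside 9.59% and 10.3%. With only the 8 libraries in the edgeR fit 2 were higher and 1 lower, beside 5.38% and 4.25%. Aurkb, the mitotic Aurora B kinase, had 85.5, 38.5, 96.6 and 39.5 CPM at BPA 25 and 4.4, 2.15, 14.1 and 3.13 CPM in controls, with no overlap and an adjusted p of 0.0774.

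Krt5 and Krt14, basal keratins of stratified squamous epithelium, had few counts in controls. Krt5 summed to 78 counts at BPA 25 and 3 counts in controls, a ratio of 25.4 (exact 95% interval 8.38 to 126, counting error only), and Krt14 to 32 counts at BPA 25 and 3 counts in controls, a ratio of 10.4 (3.26 to 53.2). Of 13 members tested, 0 passed by edgeR and 3 had an unadjusted p under 0.05, beside 3242 of all 13312 genes. DESeq2 called 3 higher, beside 4.68% of all genes, and limma 0, beside 9.59% higher and 10.3% lower. The edgeR fit of only the 8 libraries called 1 higher, beside 5.38%. The list's summed level was between 21.6 and 31.8 CPM at BPA 25 and between 21.2 and 38 CPM in controls. Stromal genes were mixed. Dcn, the matrix proteoglycan decorin, had 8240, 9240, 5910 and 8000 CPM at BPA 25 and 2600, 4070, 4850 and 3670 CPM in controls, without overlap (adjusted p = 0.109). Of the 19 stromal genes tested, 0 passed by edgeR and 4 had an unadjusted p under 0.05, beside 3242 of all 13312 genes. DESeq2 called 1 higher, beside 4.68% of all genes. Limma called 3 higher and 1 lower, beside 9.59% and 10.3%. The edgeR fit of only the 8 libraries called 2 higher, beside 5.38%. The contraction and labour list had 1 of 13 that passed, higher, beside 0.954% of all genes. This was Ptgs1, the constitutive cyclooxygenase, with 24, 32.7, 88.8 and 24.2 CPM at BPA 25 and 12, 20.9, 28 and 16 CPM in controls, with overlap. Dusp1, a phosphatase that inactivates p38 and other MAP kinases, was the 1 of 20 immediate early genes that passed, beside 0.954% of all genes higher. It had 134, 70.6, 70.7 and 66.1 CPM at BPA 25 and 36, 58.2, 33.2 and 45.7 CPM in controls (log2 fold change 0.98, SE 0.24, adjusted p = 0.0393). Sdhb, a subunit of respiratory complex II, was the 1 of 22 respiratory chain genes that passed, beside 0.969% of all genes lower. It had 55.8 ± 4.51 CPM at BPA 25 and 78.8 ± 9.53 CPM in controls (log2 fold change -0.50, SE 0.11, adjusted p = 0.0273).

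Cholesterol synthesis genes lay below 0 in 19 of 21 cases with a median log2 fold change of -0.49 (-0.28 without BPA 25 library 1), but 0 passed by edgeR or DESeq2. Of the 21, 6 had an unadjusted p under 0.05, beside 3242 of all 13312 genes. With only the 8 libraries in the edgeR fit 1 passed, lower, beside 4.25% of all genes. By limma 3 passed, lower, beside 10.3%, and 2 of the 21 had no overlap, beside 9.79%. Their summed level followed the pairing of the BPA 25 libraries, with 794, 3390, 1360 and 2500 CPM in libraries 1 to 4, against 1980, 2180, 2400 and 2760 CPM in controls, so that libraries 1 and 3 lay below every control.

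In 3 families of the protein synthesis and degradation machinery, picked after their values were seen, the genes that passed were all lower, beside 0.969% of all genes. Of 13 subunits of translation initiation factor eIF3, 4 passed lower and 0 higher, with 8 below 0 and a median of -0.14, among them Eif3b with 142 CPM at BPA 25 and 250 CPM in controls on average (log2 fold change -0.82, adjusted p = 0.0273). Of 20 cytosolic aminoacyl-tRNA synthetases, 3 passed lower and 18 were below 0 (median -0.44), and of 31 proteasome subunits, 3 passed lower and 24 were below 0 (median -0.22).

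**Figure D4:**
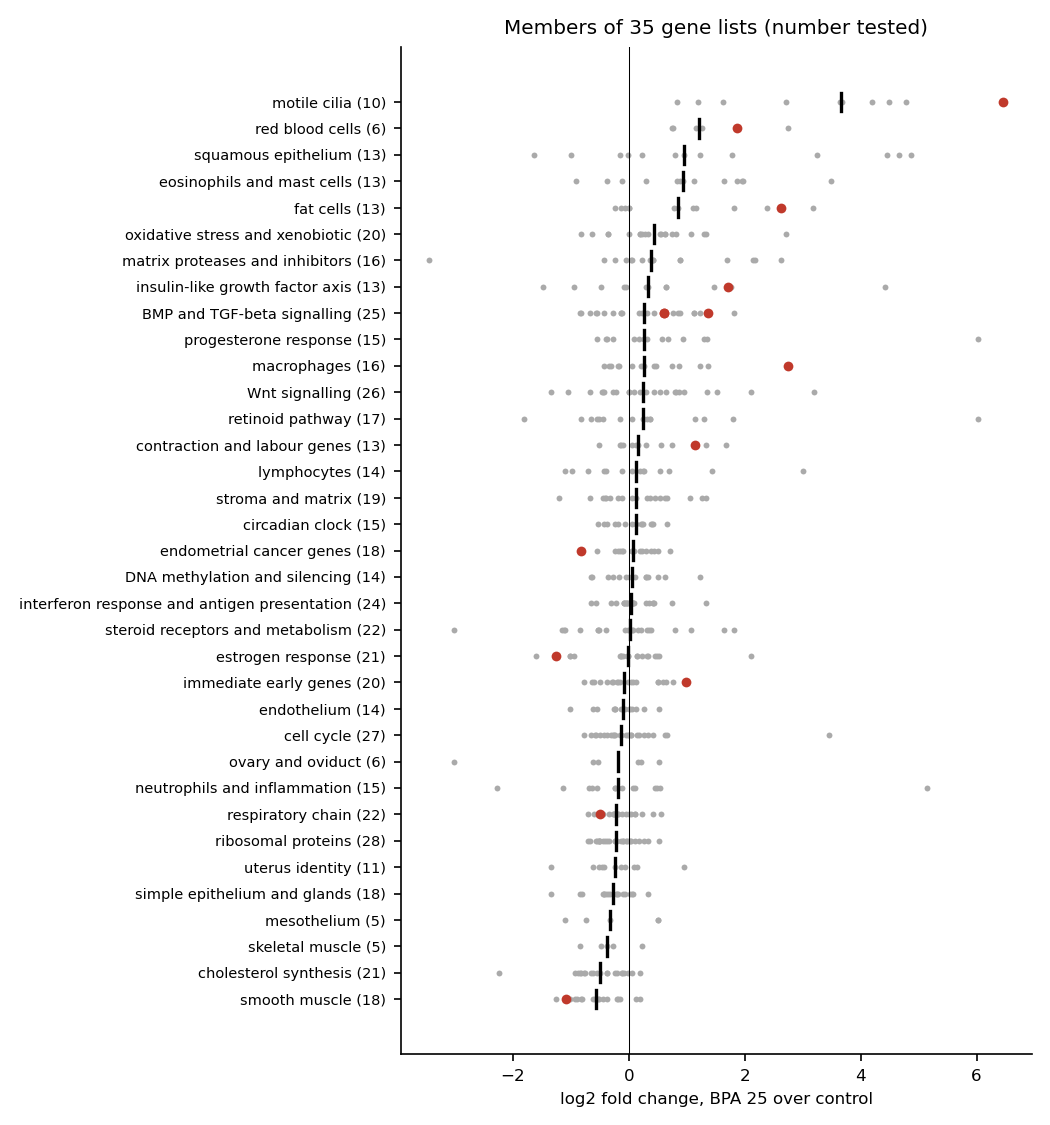
Log2 fold change of BPA 25 over control (x axis) for each tested member of 35 lists (rows, with the number tested); red points passed, grey points did not, and black bars are medians. Motile cilia and red blood cell genes lie wholly above 0, and most smooth muscle genes below.

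BPA 25 was next compared with the mean of the other 4 BPA doses, a contrast without the controls. By the same test 1231 genes passed (9.25%), 734 higher (5.51%) and 497 lower (3.73%). The count depended on single libraries: it was 0 without BPA 25 library 2, with 2583 genes at an unadjusted p under 0.05, and 468 without library 1, and it was 740 without library 3 and 2021 without BPA 2.5 library 2. With only the 5 BPA groups in the fit 462 passed. Among the genes described above, Mapk14 (log2 difference -0.59, adjusted p = 0.00717), Akt1 (-0.63, adjusted p = 0.00872), Cited4 (-1.40, adjusted p = 0.0133), Trim24 (-1.07, adjusted p = 0.0141), Haus7 (-0.91, adjusted p = 0.0203), Slc2a4 (-1.05, adjusted p = 0.021) and Smtn (-0.68, adjusted p = 0.0414) were lower at BPA 25 than the mean of the other 4 doses. Hbb-b1 (1.38, adjusted p = 0.00708), Ptn (0.81, adjusted p = 0.0135), Id2 (0.85, adjusted p = 0.0278) and Fam107a (1.34, adjusted p = 0.0353) were higher.

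The dose profile of these genes was not monotonic. Mapk14 averaged 129 ± 8.02 CPM at BPA 25, 124 ± 14 CPM at BPA 250 and between 218 and 231 CPM at BPA 2.5, 2500 and 25000, where controls averaged 243 ± 30.6 CPM. Ptn averaged 476 ± 151 CPM at BPA 25 and 492 ± 217 CPM at BPA 250, and between 210 and 242 CPM at the other 3 doses. Akt1 averaged 62.9 ± 10.4 CPM at BPA 25, 64.1 ± 9.4 CPM at BPA 250 and between 111 and 113 CPM at the other 3. Means at BPA 25 and BPA 250 were close for these 3 genes, and the comparisons of both doses with control share the same 4 control libraries. At BPA 250, Cited4 had 9.41, 14.7, 5.61 and 7.1 CPM and Hbb-b1 had 47.3, 33.1, 38.1 and 34.7 CPM. Both overlapped their BPA 25 values given above, so that a difference from the mean of the other doses need not hold at each dose. Slc2a4 was lowest at BPA 25, with 17.6 ± 4.95 CPM, against 44.7 ± 16.8, 33.9 ± 14.1, 38.2 ± 10.9 and 30.2 ± 0.811 CPM at BPA 2.5, 250, 2500 and 25000. The largest differences in this contrast among genes with log2 CPM averaging 1 or more, 4 in each direction, were those of Atp2c2, Hbb-b1, a gene without a symbol in the table used and Fam107a on the higher side, and Adam11, H2ac21, Mir3554 and Mir31 on the lower side. Mir31 and Mir3554 had near-equal counts, and reads of overlapping genes could not be told apart. Adam11, a catalytically inactive member of the ADAM family, averaged 0.889 ± 0.386 CPM at BPA 25 and between 3.08 and 3.69 CPM at the other doses (log2 difference -1.97, adjusted p = 0.00921). Atp2c2, a Golgi calcium pump, owed its place to library 3 (2.89, 3.74, 32.4 and 3.88 CPM at BPA 25).

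In this contrast the 10 ciliary genes had adjusted p-values between 0.566 and 0.968, with 7 above 0 and a median log2 difference of 0.18. Spag6l averaged 12.2 ± 4.76 CPM at BPA 25 and 46.5 ± 55.1, 3.18 ± 3.42, 10.1 ± 11.9 and 2.48 ± 1.6 CPM at BPA 2.5, 250, 2500 and 25000, and the difference between BPA 25 and the other 4 doses did not pass (log2 0.65, SE 0.81, adjusted p = 0.665). At BPA 2.5 the spread was wider than the mean, whereas at BPA 25 all 4 libraries were high. Igfbp3 and Cd163 also did not pass this contrast (adjusted p = 0.611 and 0.668).

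**Figure D5:**
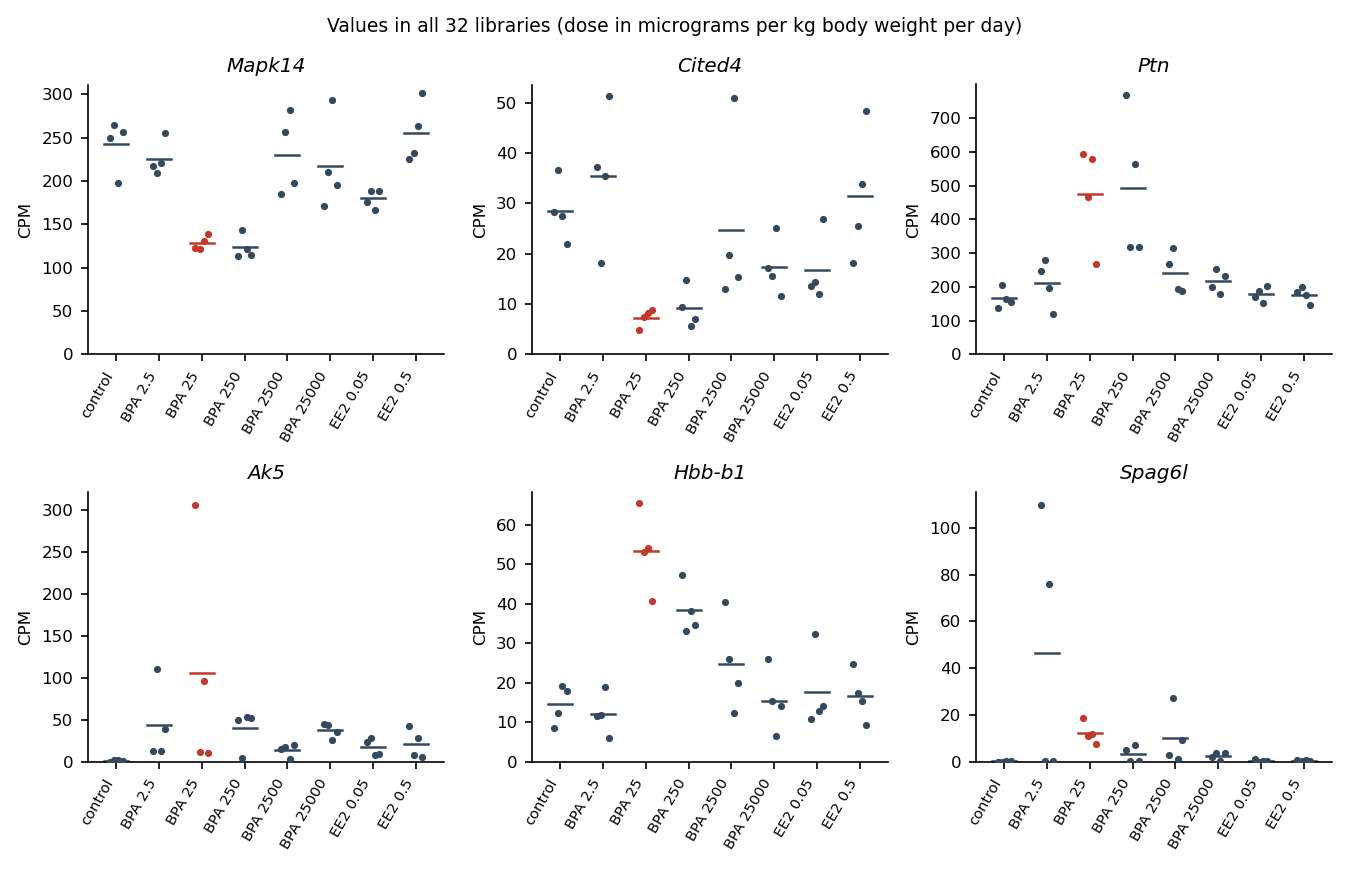
CPM (y axis, linear from 0) of 6 genes in all 32 libraries by group (x axis, doses in μg/kg body weight per day); BPA 25 is in red and lines are means. Mapk14 and Cited4 are low and Ptn and Hbb-b1 high at BPA 25 and BPA 250, while Spag6l is highest in single BPA 2.5 libraries.

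Compared with the mean of both EE2 doses, BPA 25 differed in 1529 genes (11.5%), 927 higher (6.96%) and 602 lower (4.52%). It was 905 and 508 genes without BPA 25 libraries 1 and 2, 985 without EE2 0.05 library 1 and 969 without EE2 0.5 library 4. Among genes with log2 CPM averaging 1 or more, squamous keratins had the largest differences on the lower side. Krt5 averaged 1.4 ± 0.647 CPM at BPA 25, against 92.6 ± 126 CPM at EE2 0.05 and 97.6 ± 71.1 CPM at EE2 0.5 (log2 difference -6.07, SE 1.19, adjusted p = 0.00398), and Krt15 averaged 3.59 ± 1.79 CPM at BPA 25, against 71.6 ± 94.1 CPM at EE2 0.05 and 86.3 ± 63.6 CPM at EE2 0.5 (-4.44, adjusted p = 0.0152). Clca1, a secreted protein of mucous epithelium, and En2, a homeobox factor, differed by -4.04 and -3.08 (adjusted p = 0.0117 and 0.0185). On the higher side of these genes the largest were those of Aqp4 (4.58, adjusted p = 0.00385), Il1a (3.42, adjusted p = 0.0197), Mlf1 (3.24, adjusted p = 0.0287) and Aurkb (3.18, adjusted p = 0.0195). Il1a, an inflammatory cytokine, was again split within BPA 25, with 0.17, 27.8, 0.0696 and 26.2 CPM in libraries 1 to 4. Aqp4 averaged 19.3 ± 10.1 CPM at BPA 25, against 0.657 ± 0.275 and 0.97 ± 0.252 CPM at EE2 0.05 and 0.5. Spag6l was also higher at BPA 25 than at EE2 (log2 difference 4.71, SE 1.01, adjusted p = 0.00585), and so were Ptn (1.42, adjusted p = 0.00158) and Hbb-b1 (1.64, adjusted p = 0.00401).

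Set against control, EE2 0.05 and EE2 0.5 gave 6 and 74 genes that passed (0.0451% and 0.556%), beside the 256 at BPA 25. The doses BPA 2.5, 250, 2500 and 25000 gave 1524, 1170, 0 and 309 genes (11.4%, 8.79%, 0% and 2.32%), with 1353 genes at an unadjusted p under 0.05 for BPA 2500. These comparisons share the controls and, for each gene, an estimate of the spread fitted over all 8 groups. Why their counts differ was not tested.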

How the data were processed

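Total RNA of rat uterus was isolated with the RNeasy Lipid kit and sequenced as Illumina libraries, per the labels' protocols. The authors deposited 1 table of raw read counts per gene for 32 libraries, 4 in each of 8 groups. The tools bcl2fastq, TopHat and edgeR and build rn5 are named in the submitters' processing notes. Tool versions, gene annotation and strandedness were not given in the sources used here, so overlapping antisense genes cannot be told apart. Gene identifiers were named through a RefSeq table of assembly GRCr8: 17167 of 17327 matched, and the other 160 held 1.82% of counts. Groups came from the labels.

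In R 4.3.3, edgeR 4.0.16 kept 13312 genes with filterByExpr (minimum count 10, minimum total 15), scaled them by TMM and fitted a quasi-likelihood model with 1 mean per group, without covariates, on all 32 libraries (24 residual degrees of freedom). Contrasts were BPA 25 minus control, minus the mean of the other 4 BPA doses, and minus the mean of both EE2 doses. P-values were adjusted over all genes by the Benjamini-Hochberg method (threshold 0.05). Log2 fold changes are the fitted values with a prior count of 0.125, and levels are CPM. Limma 3.58.1 and DESeq2 1.42.0 served as alternatives, with other scalings, filters, fits and single libraries left out. The fit was checked on simulated data.

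The lists, naming rule and members were chosen with earlier results of these data known. The rule named the 12 largest passing changes in each direction, 4 in each direction of the other contrasts, a panel of 17 genes (16 tested; Greb1 not analysed here) and up to 4 list members with the smallest p; other genes named were chosen after their values were seen. Libraries held between 11777809 and 24661856 counts. Intervals and floors of 3 counts cover counting error only. No 2 libraries of BPA 25 or of control held identical counts or agreed within sampling noise. Promoters and figures were handled in Python 3.11.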

Additional observations from a re-analysis of the deposited data

Results flagged for a closer look

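Among 112 genes the text names, each BPA 25 and control group of 4 with a library of 1 CPM or more was examined for a library whose gap to the nearest other was too large a share of the group's range by Dixon's 95% critical value, and 17 of 207 groups held one. Chance alone gives about 1 in 20 groups for normally distributed values, which was not tested for these CPM. Many of the genes were also named for their values, so that this rate cannot serve as a baseline for the 17. In BPA 25 replicate 3, Them5 (160 CPM), Fam107a (306 CPM), Ptgs1 (88.8 CPM), Atp2c2 (32.4 CPM) and Krt15 (6.26 CPM) were far above the other 3 libraries and Mrc1 (69.8 CPM) far below. In BPA 25 replicate 1, Pamr1 (74.8 CPM) and Dusp1 (134 CPM) were far above and Dhodh (3.56 CPM) below. In BPA 25 replicate 4, Grhl3 (5.27 CPM) and Aif1 (53.3 CPM) were far above. In control replicate 2, Fam107a (25.4 CPM), Chrd (144 CPM) and Pparg (3.18 CPM) were far above the other controls, and in control replicate 1, Mmp11 (198 CPM) and Krt15 (14 CPM). In control replicate 4, Grem1 (35.1 CPM) was far above.

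The effect at BPA 25 differed from the mean effect at the other 4 BPA doses, by the contrast of BPA 25 with those doses in edgeR (adjusted p under 0.05), for 18 of the 112 genes. Over all genes tested, 9.25% passed this contrast. The 112 include the 4 largest passing changes in each direction of this same contrast, so that the outcome for those genes was fixed by their choice. The log2 differences were 1.34 for Fam107a, 1.38 for Hbb-b1, 1.26 for Hbbl1, a globin copy, 0.85 for Id2, 0.81 for Ptn, 1.58 for Atp2c2 and 1.34 for a gene without a symbol in the table used. They were -0.91 for Haus7, -1.07 for Trim24, -1.05 for Slc2a4, -1.40 for Cited4, -0.68 for Smtn, -0.63 for Akt1, -0.59 for Mapk14, -1.97 for Adam11, -1.90 for H2ac21, -1.66 for Mir31 and -1.68 for Mir3554. The contrast called 0 genes in all without BPA 25 replicate 2.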

How the results depend on the processing

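The count of 256 genes at BPA 25 against control was 230 with robust estimation of the spread, 273 with DESeq2 size factors (165 higher, 108 lower) and 379 with a filter of 1 CPM in 16 libraries. It was 1340 at an adjusted p of 0.1, 159 without a filter on low counts, 1060 with DESeq2, 2650 with limma voom and sample weights, 1195 with only the 2 groups in the fit, and 1374 without the 4 libraries that stood apart from the rest (BPA 2.5 replicates 1 and 3, BPA 250 replicate 1 and BPA 25000 replicate 3), a setting chosen after seeing the data, in which all 256 were among those called. With 1 library left out it ranged from 0 to 523. Against the other 4 BPA doses, 1231 genes became 2153 at an adjusted p of 0.1, 2723 with limma, 462 with only the groups compared and between 0 and 2021 with 1 library left out. Against both EE2 doses, 1529 genes became 2613 at an adjusted p of 0.1, 3087 with limma, 2354 without the 4 libraries and between 508 and 1636 with 1 library left out. The cause of these shifts was not tested.

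Some genes that did not pass changed sign or, in the case of Pgr, reached 0 at 2 decimals. With limma voom the log2 fold changes against control were 1.05 for Krt15, 0.04 for Esr1, 0.44 for C3, 0.14 for Mki67 and -0.05 for Grem1. Over the fits with 1 library left out they ranged from -0.71 to 1.39 for Krt15, -0.39 to 0.50 for Adipoq, -0.28 to 0.85 for Ltf, -0.19 to 0.08 for Esr1, -0.50 to 0.70 for C3, -0.28 to 0 for Pgr, -0.66 to 0.39 for Mki67, and -1.20 to 0.28 for Mir31 and Mir3554. No paired analysis was possible because the labels give each library a number of its own and none that groups share. Genes with a few counts in controls, such as Krt5, Krt14 and Dynlrb2, are limited by depth, and 4 libraries a group limit every comparison.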
